A study of Mus musculus with 33 samples.

Results

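The genes described here are named after the 5 enzyme complexes of oxidative phosphorylation, and nearly all code for their subunits. They are the 96 rows of the expression table, of 52631 in all, whose gene name belongs to the nuclear families Nduf, Sdh, Uqcr, Cox4 to Cox8 and Atp5 or to the protein-coding genes of mitochondrial DNA, with names marked as pseudogenes left out. Nuclear DNA holds 83 of them, with 36 in complex I, 4 in complex II, 8 in complex III, 18 in complex IV and 17 in complex V by their names. The names place Ndufa4, now held to be a subunit of complex IV, in complex I, and Atp5sl, which GENCODE calls Dmac2, in complex V. Mitochondrial DNA holds the other 13, with 7 in complex I, 1 in complex III, 3 in complex IV and 2 in complex V.

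Complexes I to IV pass electrons to oxygen, all but complex II pump protons across the inner mitochondrial membrane as they do so, and complex V, the ATP synthase, uses the proton gradient to make ATP. Every complex but complex II is built from subunits of both genomes, and the mitochondrial ones are copied by a separate polymerase as long transcripts that are cut into single messages. Some pluripotent stem cells are known for a metabolism that leans on glycolysis, and their differentiation often goes with a larger share of respiration. Whether this holds for the cells used here was not measured.

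RNA was measured in 33 libraries of mouse cells of strain 129S2/SvPas, in 11 groups of 3. Embryonic stem cells plated on gelatin received all-trans retinoic acid at 10 µM together with CHIR at 5 µM (RA/CHIR), or retinoic acid at 10 µM alone (RA). CHIR compounds block the kinase GSK3 and so switch on Wnt signalling. The inducers were given for 10 days and then left out for 6 days in medium with less serum, and cells were taken at days 4, 7, 10 and 16. The labels call the RA/CHIR cells XEN-like and the RA cells smooth-muscle-like. A smooth muscle cell line (SMC), an extraembryonic endoderm line (XEN) and untreated embryonic stem cells (mES), which grew with LIF on inactivated fibroblasts, received no inducer. The labels name no cell clone and do not say whether replicates were separate cultures, so p-values measure the spread between these libraries, which may be technical. The question is how CHIR alters the course that retinoic acid sets, followed here through the genes of respiration.

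Levels are FPKM, fragments scaled to transcript length and to library size, so that levels of different genes can be compared per length. Over all rows, libraries added up to 597010 to 1086371 FPKM, and 11573 to 13662 genes reached 1 FPKM in a library. In mES replicate 3 a single row, AL626808.1, holds 303769.0 FPKM, while it is at 0 in all other libraries. The pluripotency markers summed to 6998 to 8186 FPKM in mES, the smooth muscle markers to 17126 to 17751 FPKM in SMC and the endoderm markers to 665 to 710 FPKM in XEN. In SMC, most of the smooth muscle sum was Acta2, with a mean of 11435 FPKM, and Tagln, with 5437 FPKM. Of the smooth muscle markers, Des alone had a lower mean in SMC than in mES (26.8 against 39.5 FPKM). The fibroblast markers summed to 11682 to 12005 FPKM in SMC. In RA/CHIR-16d the endoderm markers summed to 1095 to 1192 FPKM and the pluripotency markers to 958 to 1002 FPKM. Most of that pluripotency sum was Dppa5a, with a mean of 796 FPKM, and Pou5f1, with 144 FPKM. Nanog, Sox2 and Esrrb had 3.27, 3.07 and 4.56 FPKM there, against 377, 223 and 214 FPKM in mES. All 6 pluripotency markers were lower in RA/CHIR-16d than in mES. In RA-16d the smooth muscle markers summed to 7303 to 8227 FPKM and the fibroblast markers to 2924 to 3610 FPKM, against 36 to 62 FPKM of fibroblast markers in mES. In such bulk samples, fewer cells of a type and less RNA per cell cannot be told apart.

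Many promoters of nuclear respiratory genes are known to be bound by NRF1 and by GABP, an ETS factor, which is why their start regions are shown. RefSeq promoter windows of 300 bases, from 250 before to 50 after a gene's start, were available for 69 of the 83 nuclear genes on GRCm38.p6. The NRF1 core, GCGCATGC on either strand (GCATGCGC on the other), was in the windows of 10 of the 69, or 14.5%, against 3.05% of all 27025 genes with a window. The ETS core, CCGGAAG on either strand (CTTCCGG on the other), was in 16 of the 69, or 23.2%, against 9.93% of all genes. Either motif was in 21 of the 69, or 30.4%, against 12.4%. A match describes the letters in the window and not a bound site. All of the 4 windows shown hold a match, unlike most of the 69, so they are not typical of the set. These windows, of genes named in the results, follow, written 5′ to 3′ on the gene's strand with motif matches in capitals.
Uqcrc1: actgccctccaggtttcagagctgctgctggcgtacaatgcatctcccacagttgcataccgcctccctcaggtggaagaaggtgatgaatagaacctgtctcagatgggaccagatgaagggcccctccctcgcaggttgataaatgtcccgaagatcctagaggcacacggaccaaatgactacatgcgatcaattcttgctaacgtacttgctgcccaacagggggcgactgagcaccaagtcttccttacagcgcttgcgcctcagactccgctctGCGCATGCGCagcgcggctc
Atp5k: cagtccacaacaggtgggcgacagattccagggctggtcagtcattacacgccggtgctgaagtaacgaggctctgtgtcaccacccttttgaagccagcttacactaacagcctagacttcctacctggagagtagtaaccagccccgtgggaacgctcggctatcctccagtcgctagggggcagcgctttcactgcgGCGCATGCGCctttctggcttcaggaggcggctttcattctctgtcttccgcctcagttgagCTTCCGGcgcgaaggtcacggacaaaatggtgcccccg
Sdhb: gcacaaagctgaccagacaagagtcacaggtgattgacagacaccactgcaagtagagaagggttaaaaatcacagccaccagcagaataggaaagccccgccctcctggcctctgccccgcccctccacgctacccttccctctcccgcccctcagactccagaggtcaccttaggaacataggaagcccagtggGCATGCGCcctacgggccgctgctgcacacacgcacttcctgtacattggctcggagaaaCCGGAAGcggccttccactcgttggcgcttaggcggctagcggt
Sdhd: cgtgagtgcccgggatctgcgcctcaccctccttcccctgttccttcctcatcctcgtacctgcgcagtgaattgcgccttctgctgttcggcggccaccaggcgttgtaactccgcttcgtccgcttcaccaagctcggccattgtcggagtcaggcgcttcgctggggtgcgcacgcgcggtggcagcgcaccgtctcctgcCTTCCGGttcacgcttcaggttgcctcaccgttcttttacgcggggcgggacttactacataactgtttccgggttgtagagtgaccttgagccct
The window of Uqcrc1, a core subunit of complex III, lies at chr9:108936398-108936697, plus strand. Its 2 NRF1 matches overlap, since the motif and its reverse complement share letters, and the same holds for Atp5k, a small subunit of complex V, at chr5:108434350-108434649, minus strand. Atp5k also holds an ETS match. Sdhb, the iron-sulfur subunit of complex II, holds an NRF1 and an ETS match at chr4:140961021-140961320, plus strand. Sdhd, a membrane anchor of complex II, holds an ETS match at chr9:50603800-50604099, minus strand.

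The 13 mitochondrial genes were listed at very unequal levels. Averaged over all 33 libraries, mt-Atp8 had 30700.0 FPKM, mt-Co1 12380.0 FPKM, mt-Nd1 5453 FPKM, mt-Cytb 3477 FPKM, mt-Nd6 3336 FPKM, mt-Nd2 2263 FPKM, mt-Nd4 1625 FPKM and mt-Nd5 1021 FPKM. The other 5 were far lower, with 97.6 FPKM for mt-Co2, 38.9 FPKM for mt-Co3, 32.2 FPKM for mt-Atp6, 17.4 FPKM for mt-Nd3 and 5.19 FPKM for mt-Nd4l. For these 5, GRCm38 carries an annotated, nearly complete copy in a stretch of mitochondrial DNA inserted in chromosome 1, between positions 24611535 and 24616197. Against its copy, mt-Co2 is 100% identical over 99.6% of its length, mt-Atp6 over 99.6%, mt-Co3 over 99.9% and mt-Nd4l over 99%, and mt-Nd3 differs by T3C alone, counted from the start of the gene. The copy of mt-Nd4 covers 63.6% of the gene and that of mt-Co1 covers 31.8%, and is 98.8% identical there. The copies themselves were listed at similar or higher levels, such as 138 ± 34.6 FPKM for Gm10925, the copy of mt-Atp6, which had 54.5 ± 9.76 FPKM in RA-10d. Reads from a gene and an identical copy cannot be told apart, so the levels of these 5 genes are uncertain, and sums over the mitochondrial genes rest on the other 8. mt-Atp8 is 204 bases long and shares its end with mt-Atp6, so its value is uncertain as well. Yet it makes up 46.9% to 57.4% of the mitochondrial sum of a library. It starts at position 7766, between the end of mt-Co2 at 7696 and the start of mt-Atp6 at 7927. The copies of these neighbours leave a gap from 24614651 to 24614885 on chromosome 1, so mt-Atp8 may be copied there too. No copy of it is annotated there, and its sequence was not compared with the stretch. A sum over mt-Nd1, mt-Nd2, mt-Nd5, mt-Nd6 and mt-Cytb leaves out every gene with a copy in that stretch. Elsewhere in the genome, a pseudogene resembles mt-Nd5 over 52.3% of its length and was at 0.291 FPKM or less in every library, and another resembles mt-Co1 over its whole length and was at 3.49 FPKM or less.

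**Figure D1:**
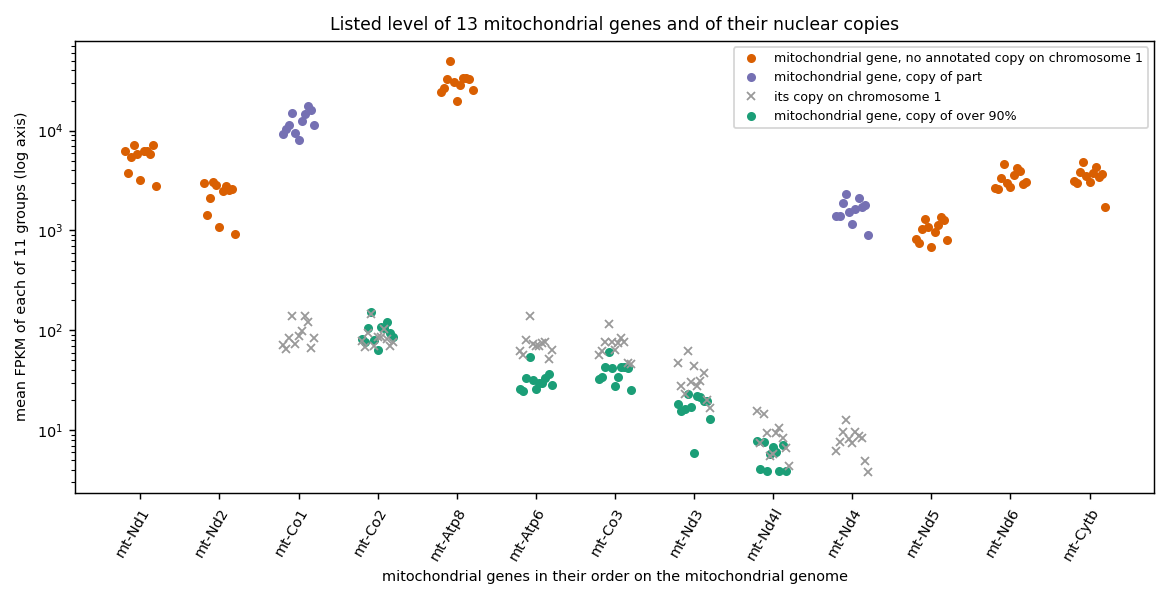
Mean FPKM (log axis) in each of the 11 groups for the 13 mitochondrial genes in genome order, with grey crosses for their annotated copies on chromosome 1. The 5 genes with a copy of over 90% of their length (green) lie near or under their copies, while the genes with no annotated copy or a partial copy there lie far above.

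Summed over the 83 nuclear genes, the transcripts of oxidative phosphorylation were highest in mES and XEN and lowest in RA-4d and RA/CHIR-16d. The nuclear sum was 21202, 20064 and 24830.1 FPKM in the 3 mES libraries. In RA/CHIR it was 19400.0 ± 107 FPKM at day 4, 19580.5 ± 407 at day 7, 18456 ± 65.2 at day 10 and 15358 ± 138 at day 16 (mean ± SD, n = 3). In RA it was 14720.4 ± 529 FPKM at day 4, 17102 ± 120.2 at day 7, 16184 ± 220.0 at day 10 and 16740.3 ± 1622 at day 16. RA/CHIR libraries lay above all RA libraries at days 4, 7 and 10, while at day 16 the groups overlapped.

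The mitochondrial sum followed another course. In RA it reached 91556, 87008 and 86196 FPKM at day 10, above every other library of the series, and was 58438, 59546 and 57806 FPKM at day 16. In RA/CHIR it was 69700.4, 71842 and 70547 FPKM at day 10 and 70138, 67227 and 68171 FPKM at day 16. The groups without inducers had less than on these days in this sum, with 39877 ± 418 FPKM in SMC, 46887 ± 3702 FPKM in XEN and 50917 ± 3748 FPKM in mES. The ratio of the mitochondrial to the nuclear sum was 4.46 ± 0.0697 in RA/CHIR-16d and 3.52 ± 0.384 in RA-16d, against 2.33 ± 0.325 in mES. At day 10 it was 3.83 ± 0.0686 in RA/CHIR and 5.45 ± 0.225 in RA, without overlap. With the 5 mitochondrial genes outside the copied stretch, the day 10 ratio was 0.933 ± 0.0278 in RA/CHIR and 1.30 ± 0.00752 in RA, again without overlap. At day 16 this ratio was 1.17, 1.15 and 1.12 in RA/CHIR and 0.883, 1.18 and 0.891 in RA, where the groups overlapped. The sum of these 5 genes was 16209, 17792 and 14925 FPKM in RA-16d and 14486, 16813 and 16004 FPKM in mES, which overlap as well. With 3 libraries against 3, an exact permutation test cannot go below a p of 0.10, so these ratios are given without a test.

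**Figure D2:**
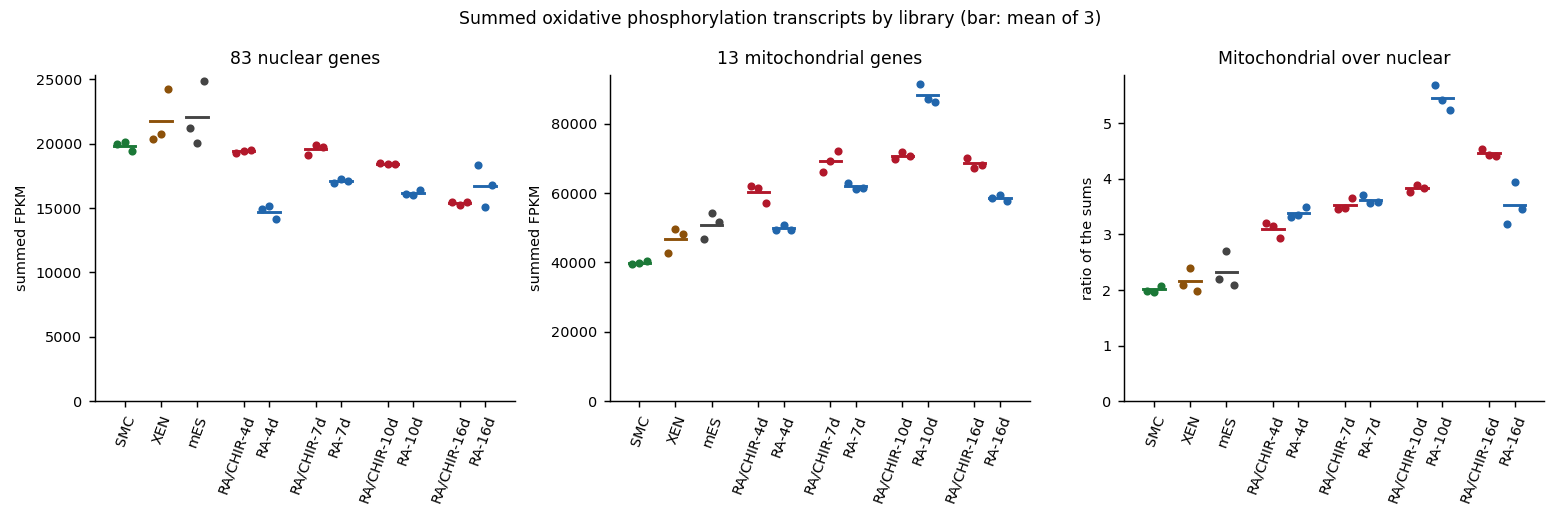
Summed FPKM of the 83 nuclear genes (left), of the 13 mitochondrial genes (middle) and their ratio (right) in each of 33 libraries, with the group mean as a bar. The mitochondrial sum of RA-10d stands above all other groups, while the nuclear sum is lowest in RA-4d and RA/CHIR-16d.

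Single genes were tested with limma on log2(FPKM + 1), with Benjamini-Hochberg adjustment over 16508 genes. Of the 96, 94 could be tested, and Cox8b and Cox8c, which were at 0 in 32 and 30 libraries, were too low. Every count and median over the 13 mitochondrial genes includes those with a nearly complete nuclear copy, whose levels are uncertain. Genes are said to be higher or lower where the adjusted p is under 0.05, and "called" where the change is also at least 2-fold. Fold changes are log2 values ± standard error on the log2(FPKM + 1) scale, which understates changes of low genes.

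At day 4, nuclear genes were higher with CHIR across all 5 complexes. Of 81 nuclear genes, 60 were higher in RA/CHIR than in RA and 0 lower (1 at an unadjusted p under 0.05), against 21.5% of all genes that were higher and 21.4% that were lower. All 8 nuclear genes of complex III and all 4 of complex II were among the 60, with 25 of 36 in complex I, 11 of 16 in complex IV and 12 of 17 in complex V. None was called, against 7.63% of all genes. The median was 0.41 for the nuclear genes and 0.01 for all genes.

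Uqcrq, a small subunit of complex III, had 234, 241 and 242 FPKM in RA/CHIR-4d, against 148, 118 and 138 FPKM in RA-4d. The groups did not overlap, and the difference was 0.83 ± 0.12, adjusted p = 4.9e-06 by limma. Cox5a, which binds next to the catalytic core of complex IV, had 405, 421 and 397 FPKM in RA/CHIR-4d, against 241, 262 and 245 FPKM in RA-4d (0.71 ± 0.06, adjusted p = 1.4e-10 by limma). All 3 RA/CHIR libraries were again above all 3 RA libraries. Ndufa12, an accessory subunit of complex I, had 57.6, 66.3 and 57.1 FPKM in RA/CHIR-4d, against 33.2, 39.4 and 29.0 FPKM in RA-4d (0.82 ± 0.15). Among the core subunits, the changes were 0.55 for Uqcrc1, 0.34 for Atp5a1, 0.32 for Ndufv1, 0.22 for Uqcrfs1, 0.20 for Sdha and 0.20 for Sdhb, all higher, and 0.20 for Atp5b and 0.11 for Ndufs1, which did not pass.

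Of the 13 mitochondrial genes, 8 were higher at day 4 and 0 lower (0 at an unadjusted p under 0.05), against 21.5% of all genes higher and 21.4% lower. Without RA/CHIR-4d replicate 1, 5 were higher. mt-Nd1, a core subunit of complex I, had 6429, 6335 and 5846 FPKM in RA/CHIR-4d, against 3902, 3629.7 and 3792 FPKM in RA-4d (0.72 ± 0.07, adjusted p = 1.3e-09 by limma). mt-Nd2, another core subunit of complex I, changed by 0.81 ± 0.07, and mt-Co1, the catalytic subunit of complex IV, by 0.27 ± 0.05. mt-Atp8 did not pass, at 0.12 ± 0.07. When the libraries were scaled to their sum without mitochondrial rows, the median of all genes moved by -0.12, and 39 nuclear genes were higher and 1 lower. The mitochondrial count was 3 higher with that scaling and 2 higher after quantile normalization.

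**Figure D3:**
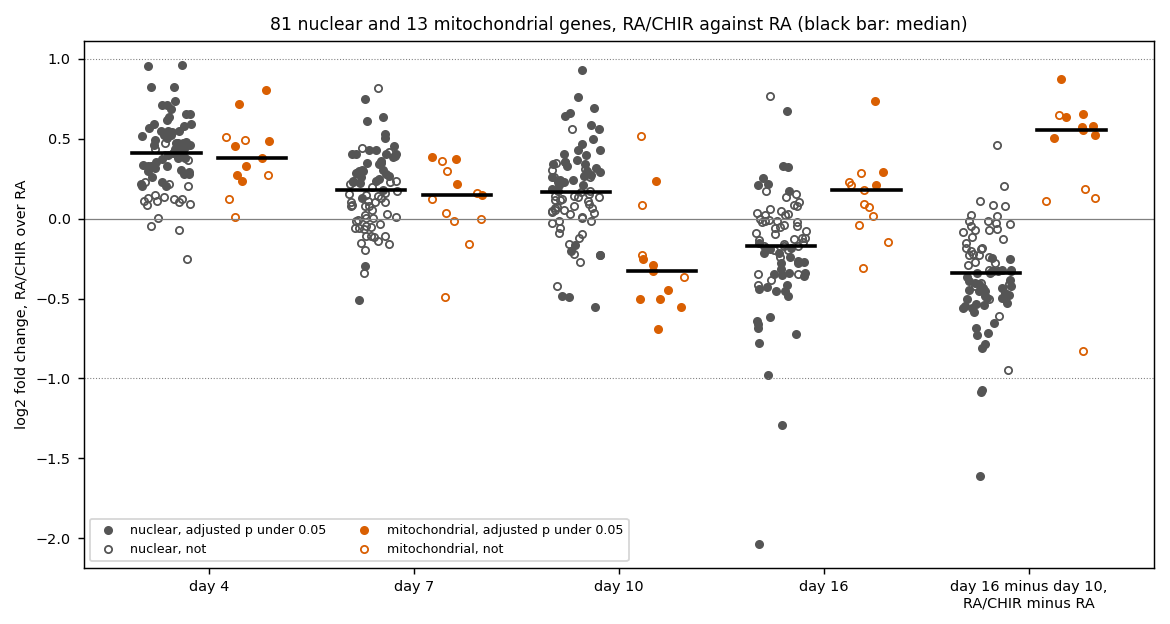
Log2 fold change of RA/CHIR over RA for 81 nuclear (grey) and 13 mitochondrial (orange) genes at days 4, 7, 10 and 16, and the change from day 10 to day 16 in RA/CHIR minus that in RA. Filled points have an adjusted p under 0.05, black bars are medians and dotted lines mark 2-fold. The medians of both genomes are alike at days 4 and 7 and lie on opposite sides of 0 at days 10 and 16. The mitochondrial points include genes whose levels are uncertain because of a nuclear copy.

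At day 7 the differences were smaller and reached fewer genes. Of the 81 nuclear genes, 33 were higher in RA/CHIR and 2 lower, against 22.9% of all genes higher and 24.4% lower. None was called, against 10.7% of all genes. Of the mitochondrial genes, mt-Nd1, mt-Nd2, mt-Co1 and mt-Cytb were higher and 0 lower (0 at an unadjusted p under 0.05). After quantile normalization 31 nuclear genes were higher and 6 lower, and 1 mitochondrial gene was higher and 1 lower. When scaled without mitochondrial rows, 2 mitochondrial genes were higher.

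Sdhd, one of the anchors that hold complex II in the membrane (chr9:50596357-50603812, minus strand), moved further from day 7 on. It had 340.3, 347 and 363 FPKM in RA/CHIR-7d, against 224, 226 and 237 FPKM in RA-7d (0.61 ± 0.07, adjusted p = 9.3e-08 by limma). At day 10 it had 388, 369 and 383 FPKM in RA/CHIR, against 189.7, 202 and 205 FPKM in RA (0.93 ± 0.07, adjusted p = 2.6e-11 by limma). At day 16 it had 352, 340.4 and 377 FPKM in RA/CHIR, against 239, 201 and 230.2 FPKM in RA (0.67 ± 0.07, adjusted p = 7.9e-09 by limma). The groups did not overlap on any of these days. The other subunits of complex II were not higher at day 16: Sdhb was lower in RA/CHIR by limma (-0.64 ± 0.07), while Sdha, the flavoprotein (-0.01 ± 0.04), and Sdhc, the other anchor (-0.24 ± 0.12), did not pass.

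The 2 nuclear genes that were lower at day 7 were Cox7c, a small subunit of complex IV, and Ndufa11, an accessory subunit of complex I. Cox7c had 446, 489 and 472 FPKM in RA/CHIR-7d, against 636, 683 and 680.5 FPKM in RA-7d (-0.51 ± 0.10, adjusted p = 1.9e-04 by limma). It was lower at days 10 and 16 too (-0.55 ± 0.10 and -0.44 ± 0.10), and at day 4 it differed by 0.13 ± 0.10, which did not pass. Ndufa11 changed by -0.29 ± 0.07 at day 7, -0.49 ± 0.07 at day 10 and -0.72 ± 0.07 at day 16.

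At day 10 the nuclear and the mitochondrial genes moved apart. Of the 81 nuclear genes, 33 were higher in RA/CHIR and 6 lower, against 27.2% of all genes higher and 28.0% lower. Without RA/CHIR-10d replicate 3, 3 were lower. Of the 13 mitochondrial genes, 1 was higher and 8 were lower. None of either genome was called, against 15.4% of all genes. The medians were 0.17 for nuclear and -0.33 for mitochondrial genes. The mitochondrial count and median include the genes of uncertain level. Of 8 tested rows listed as nuclear copies of mitochondrial DNA, 5 were lower as well, with a median of -0.45. These rows include Gm10221, which matches Atp5l instead. The nuclear split depended on the scaling, with 20 higher and 15 lower after quantile normalization and 15 higher and 13 lower when scaled without mitochondrial rows, while 8 mitochondrial genes were lower under each scaling.

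mt-Cytb, the core of complex III that mitochondrial DNA codes for, had 3366, 3542 and 3468 FPKM in RA/CHIR-10d, against 4935, 4776 and 4970.3 FPKM in RA-10d (-0.50 ± 0.06, adjusted p = 6.6e-08 by limma). All 3 RA/CHIR libraries were below all 3 RA libraries. mt-Atp8 had 33073, 34457 and 33746 FPKM in RA/CHIR-10d, against 52558, 48463 and 47330.3 FPKM in RA-10d (-0.55 ± 0.07, adjusted p = 5.2e-07 by limma). The mitochondrial gene that was higher is mt-Co1 (chrM:5328-6872, plus strand), with 17949, 17678 and 17680.4 FPKM in RA/CHIR-10d, against 15375, 14948 and 15029 FPKM in RA-10d (0.23 ± 0.05, adjusted p = 2.9e-04 by limma). Again no library of RA/CHIR overlapped with RA. That difference was 0.23 as measured, and it did not pass after quantile normalization or when scaled without mitochondrial rows, where 0 mitochondrial genes were higher. Among the nuclear genes, Sdhd led, followed by Ndufa6, an accessory subunit of complex I (0.76 ± 0.10), and Cox5a (0.69 ± 0.06).

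At day 16, 6 days after the inducers were left out, fewer nuclear genes were higher in RA/CHIR and more were lower. Of 81, 7 were higher and 32 lower, against 30.1% of all genes higher and 31.8% lower. Without RA-16d replicate 1, 21 were lower. Complex I held 17 of the 32, and complex V held 6 lower and 0 higher. Called were 2 genes, both lower, against 21.3% of all genes, and they were Cox4i2 and Cox6b2, which are described with the isoforms. The 7 higher nuclear genes were Sdhd, Cox6a1, Cox5a, Ndufs1, Uqcrfs1, Uqcrc1 and Ndufb8, with changes between 0.18 and 0.67. Of the mitochondrial genes, mt-Co1, mt-Nd1 and mt-Nd4 were higher and 0 lower (0 at an unadjusted p under 0.05). Without RA-16d replicate 2, 5 were higher.

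mt-Co1 had 15788, 15708 and 16264 FPKM in RA/CHIR-16d, against 9346, 9823 and 9515 FPKM in RA-16d (0.74 ± 0.05, adjusted p = 1.1e-12 by limma). The lowest RA/CHIR library was far above the highest RA library. Ndufv3, an accessory subunit of complex I, had 132, 119 and 113 FPKM in RA/CHIR-16d, against 279, 198 and 250.0 FPKM in RA-16d (-0.98 ± 0.12, adjusted p = 1.2e-07 by limma). Ndufc2, another accessory subunit of complex I, had 89.1, 96.3 and 104 FPKM in RA/CHIR-16d, against 183, 158 and 158 FPKM in RA-16d (-0.78 ± 0.09, adjusted p = 6.0e-08 by limma). Neither gene overlapped between the groups. Beside these differences, the 6 smooth muscle markers added up to 423 to 435 FPKM in the RA/CHIR-16d libraries, against 7303 to 8227 FPKM in RA-16d, with all 5 that could be tested lower in RA/CHIR. The 7 fibroblast markers added up to 428 to 466 FPKM in RA/CHIR-16d, against 2924 to 3610 FPKM in RA-16d. The part of these cells in the result was not tested.

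**Figure D4:**
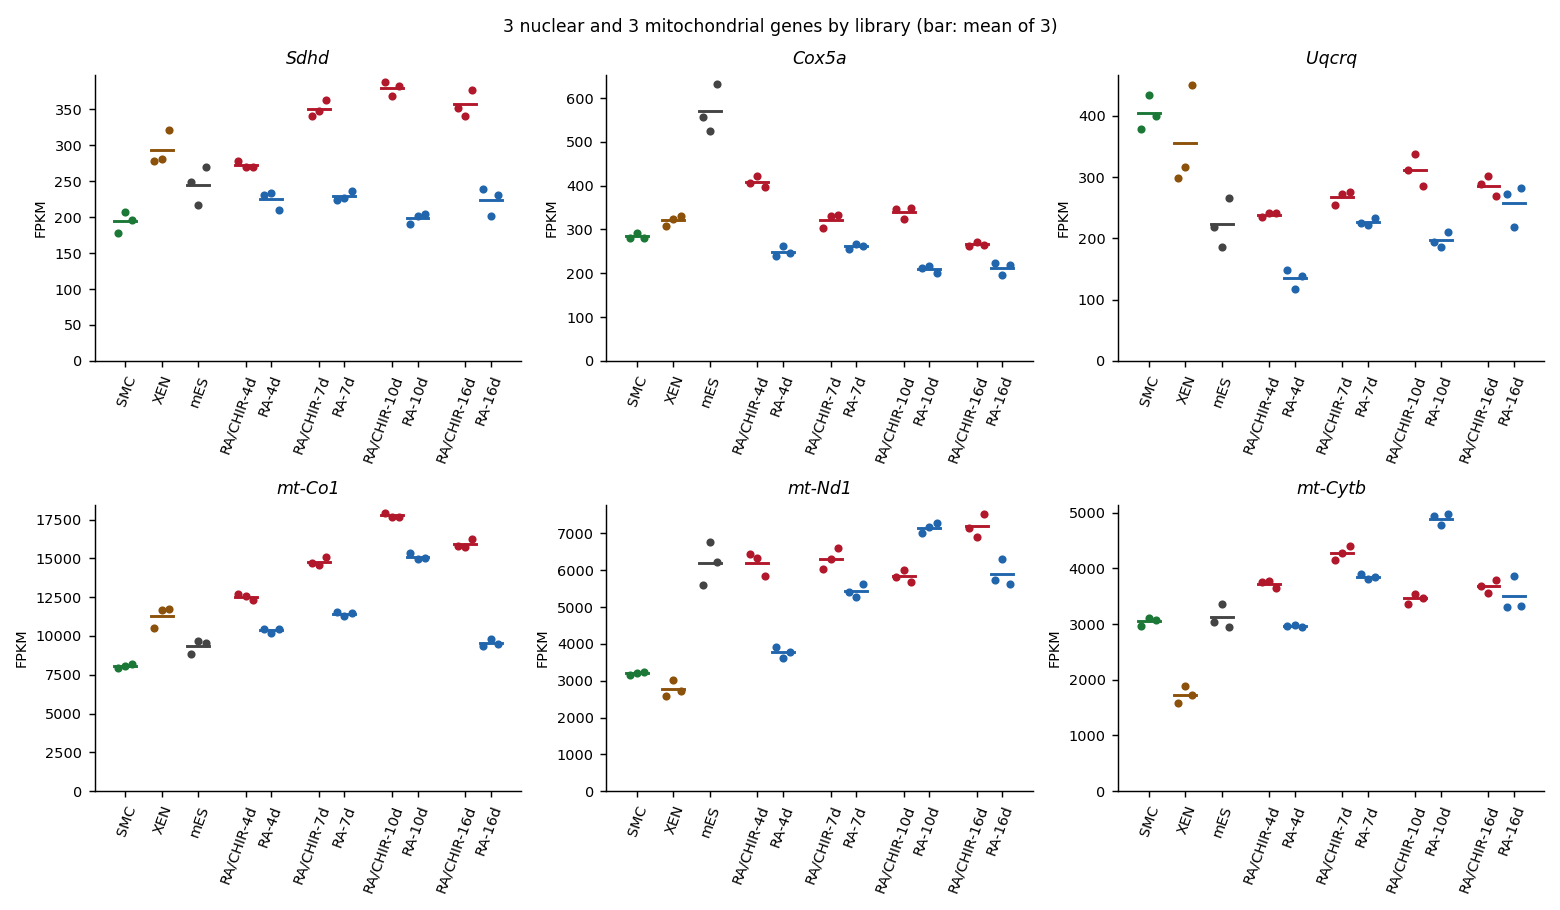
FPKM of 3 nuclear genes (Sdhd, Cox5a, Uqcrq) and 3 mitochondrial genes (mt-Co1, mt-Nd1, mt-Cytb) in each of 33 libraries, with the group mean as a bar. mt-Co1 and Sdhd lie higher in RA/CHIR than in RA on each of days 7, 10 and 16, and mt-Nd1 and mt-Cytb lie lower in RA/CHIR at day 10.

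The change from day 10 to day 16, when the inducers were absent, differed between the arms for many genes. In RA/CHIR, 44 of 81 nuclear genes were lower at day 16 than at day 10 and 3 higher, against 26.3% of all genes lower and 28.8% higher, and 1 was called, against 14.8%. In RA, 10 were lower and 11 higher, against 18.0% lower and 23.6% higher, and 1 was called, against 9.17%. The RA count varied with the libraries, with 20 higher without RA-16d replicate 2 and 7 without RA-16d replicate 1. It also varied with the scaling, with 8 higher and 40 lower after quantile normalization and 8 higher and 16 lower when scaled without mitochondrial rows. Among the 13 mitochondrial genes, 9 were lower at day 16 in RA and 0 higher (0 at an unadjusted p under 0.05), while in RA/CHIR 3 were lower and 1 higher. After quantile normalization 5 were lower in RA. The RA/CHIR split was 1 lower and 4 higher after quantile normalization and 1 lower and 1 higher when scaled without mitochondrial rows.

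The difference of these changes was tested as an interaction, RA/CHIR minus RA. It was below 0 for 43 nuclear genes and above 0 for none (0 at an unadjusted p under 0.05), against 22.8% of all genes below and 20.5% above. It was above 0 for 8 mitochondrial genes and below for none (0 at an unadjusted p under 0.05). Of the 94, 3 nuclear genes were called, against 14.8% of all genes. The medians were -0.34 for nuclear and 0.55 for mitochondrial genes, and both kept their sign under each scaling. The mitochondrial count and median again include the genes of uncertain level. The rows listed as nuclear copies of mitochondrial DNA, which include Gm10221, a match of Atp5l instead, had a median of 0.68. The nuclear count was 12 below and 0 above when scaled without mitochondrial rows, and 28 below and 6 above after quantile normalization. By complex, it was below 0 for 22 of 36 nuclear genes of complex I, 3 of 4 of complex II, 6 of 8 of complex III, 7 of 16 of complex IV and 5 of 17 of complex V. The interaction uses the same libraries as the comparisons at days 10 and 16 and is no separate support for them.

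Called in the interaction were Cox4i2, Ndufa12 and Ndufc2, and when scaled without mitochondrial rows Ndufa12 (-0.93) and Ndufc2 (-0.90) were under 2-fold. Ndufc2 had 89.1, 96.3 and 104 FPKM in RA/CHIR-16d and 192, 184 and 181 FPKM in RA/CHIR-10d, while it had 183, 158 and 158 FPKM in RA-16d and 159, 137 and 159 FPKM in RA-10d. It was lower at day 16 in RA/CHIR without overlap, overlapped between the days in RA, and had an interaction of -1.07 ± 0.13, adjusted p = 2.8e-07 by limma. Ndufa12 had 28.2, 28.6 and 25.4 FPKM in RA/CHIR-16d and 49.8, 44.5 and 44.5 FPKM in RA/CHIR-10d, against 53.4, 37.7 and 38.0 FPKM in RA-16d and 28.2, 35.4 and 36.3 FPKM in RA-10d (-1.08 ± 0.21, adjusted p = 1.3e-04 by limma). Among the mitochondrial genes the interaction was 0.58 ± 0.09 for mt-Nd1, 0.58 ± 0.08 for mt-Cytb and 0.50 ± 0.07 for mt-Co1. The mitochondrial ribosomal RNAs went the other way in RA: mt-Rnr2, the large one, had 505 ± 181 FPKM in RA-16d and 167 ± 12.6 FPKM in RA-10d (1.53 ± 0.20, adjusted p = 5.4e-07 by limma), in libraries selected for poly(A).

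Against undifferentiated cells, the nuclear genes were mostly lower at the end of either course. In RA/CHIR-16d, 60 of 81 were lower than in mES and 4 higher, against 37.7% of all genes lower and 35.8% higher, and 11 were called, all lower, against 36.3% of all genes. In RA-16d, 50 were lower and 7 higher, against 35.6% lower and 38.8% higher, and 7 were called, all lower, against 36.7%. The medians were -0.51 in RA/CHIR-16d and -0.34 in RA-16d, and both stayed below 0 under each scaling. When scaled without mitochondrial rows, where the median of all genes moved by 0.28 and 0.25, 39 were lower and 9 higher in RA/CHIR-16d, and 24 were lower and 18 higher in RA-16d. In that scaling the sum of mES replicate 3 includes the 303769.0 FPKM of AL626808.1. The part of that row in the comparisons with mES was not tested. After quantile normalization 48 were lower and 13 higher in RA-16d. Without mES replicate 3, 7 were higher in RA/CHIR-16d and 13 in RA-16d, and without mES replicate 2 or RA-16d replicate 1, 4 were higher in RA-16d. By complex, 27 of 36 genes of complex I, 3 of 4 of complex II, 5 of 8 of complex III, 11 of 16 of complex IV and 14 of 17 of complex V were lower in RA/CHIR-16d, and 18, 3, 5, 12 and 12 were lower in RA-16d, in the same order. The mES libraries are common to these comparisons.

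Atp5b, the catalytic beta subunit of complex V, had 998, 735 and 861 FPKM in RA/CHIR-16d and 685, 786 and 878 FPKM in RA-16d, against 1881, 1977 and 2074 FPKM in mES. The lowest mES library was above every treated library of day 16, with changes of -1.20 ± 0.09, adjusted p = 8.4e-12 in RA/CHIR-16d and -1.34 ± 0.09, adjusted p = 8.6e-13 in RA-16d by limma. Cox5a had 261, 272 and 264 FPKM in RA/CHIR-16d and 223, 196 and 218 FPKM in RA-16d, against 557, 524 and 632 FPKM in mES (-1.10 ± 0.06 and -1.42 ± 0.06). Uqcrc1 had 179, 186 and 170.1 FPKM in RA/CHIR-16d and 156, 149 and 157 FPKM in RA-16d, against 348, 333 and 388 FPKM in mES (-0.99 ± 0.06 and -1.20 ± 0.06). Both genes were separated from mES in every library. Of the other core subunits, Sdha changed by -0.75 and -0.74, Sdhb by -1.04 and -0.40, Ndufs1 by -0.51 and -0.76, Ndufv1 by -0.77 and -0.94, and Atp5a1 by -0.92 and -0.77, in RA/CHIR-16d and then in RA-16d, all lower.

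Uqcrh, the hinge subunit of complex III, went against this trend. It had 458, 503 and 484 FPKM in RA/CHIR-16d and 683, 521 and 555 FPKM in RA-16d, against 344, 319.7 and 453 FPKM in mES. All day 16 libraries were above all mES libraries, with changes of 0.39 ± 0.09 in RA/CHIR-16d and 0.66 ± 0.09 in RA-16d. Of the 13 mitochondrial genes, 8 were higher and 1 lower in RA/CHIR-16d, and 5 were higher and 0 lower in RA-16d (0 at an unadjusted p under 0.05). Of all genes, 35.8% were higher and 37.7% lower in RA/CHIR-16d, and 38.8% were higher and 35.6% lower in RA-16d. The 5 of 13 that were higher in RA-16d are near that share. In RA/CHIR-16d, 10 mitochondrial genes were higher and 0 lower when scaled without mitochondrial rows, and 5 were higher and 0 lower in a fit of only the groups compared. The RA-16d count was 2 in a fit of only the groups compared, 3 with TMM-type factors, 8 when scaled without mitochondrial rows, 1 without mES replicate 1, 3 without RA-16d replicate 1 and 2 without RA-16d replicate 2. mt-Co1 was higher than in mES in RA/CHIR-16d (0.77 ± 0.05) and did not pass in RA-16d (0.03 ± 0.05), and the difference between these groups is the day 16 comparison above.

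In the established lines, single genes stood out against a mixed picture. In SMC, 21 nuclear genes were higher than in mES and 33 lower, against 35.5% of all genes higher and 40.7% lower, and 8 of the 94 genes were called, against 43.2%. Of the 8, Cox6a2 passed the filter on low values only through SMC. In XEN, 24 were higher and 29 lower, against 29.5% higher and 40.9% lower, and 8 were called, against 33.1%. These splits moved with the scaling, with 9 higher and 50 lower in SMC and 19 higher and 37 lower in XEN after quantile normalization. When scaled without mitochondrial rows they were 13 higher and 40 lower in SMC and 32 higher and 24 lower in XEN.

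Ndufs5, an accessory subunit of complex I (chr4:123712710-123718202, minus strand), set the lines apart. It had 341, 287 and 330.4 FPKM in SMC and 101, 104 and 125 FPKM in XEN, against 31.8, 18.0 and 19.2 FPKM in mES. Every library of the lines was above every mES library, with changes of 3.78 ± 0.20, adjusted p = 2.6e-15 in SMC and 2.24 ± 0.20, adjusted p = 2.0e-10 in XEN by limma. Among the treated groups its highest library had 29.2 FPKM, in RA/CHIR-7d. Atp5e, the epsilon subunit of complex V, had 440.0, 444 and 394 FPKM in SMC and 537, 474 and 599 FPKM in XEN, against 201, 202 and 248 FPKM in mES (0.97 ± 0.11 and 1.30 ± 0.11). Cox8a, a small subunit of complex IV, had 1911, 1861 and 2498 FPKM in XEN, against 1020.0, 995 and 927 FPKM in mES (1.08 ± 0.09, adjusted p = 1.6e-11 by limma). Its lowest XEN library was above the highest mES library. In SMC, Ndufa3, an accessory subunit of complex I, was higher at 1.21 ± 0.20, and Atp5sl, the gene now called Dmac2, was lower at -1.90 ± 0.11.

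Of the mitochondrial genes of complex I, mt-Nd1, mt-Nd2 and mt-Nd4 were lower in both lines. mt-Nd2 had 1107, 1092 and 1086 FPKM in SMC and 829, 1015 and 932 FPKM in XEN, against 2574, 3175 and 3129 FPKM in mES. No library of the lines reached the mES libraries, with changes of -1.43 ± 0.07, adjusted p = 5.5e-16 in SMC and -1.67 ± 0.07, adjusted p = 2.7e-17 in XEN by limma. mt-Nd1 changed by -0.95 ± 0.07 and -1.16 ± 0.07, and mt-Nd4 by -0.26 ± 0.08 and -0.61 ± 0.08. In all, 7 of 13 mitochondrial genes were lower in SMC and 0 higher (0 at an unadjusted p under 0.05), while in XEN 5 were lower and mt-Co1 was higher (0.27 ± 0.05). Of all genes, 40.7% were lower and 35.5% higher in SMC, and 40.9% were lower and 29.5% higher in XEN. The 5 of 13 that were lower in XEN are near that share. In a fit of only the groups compared, 4 mitochondrial genes were lower in SMC, and in XEN 4 were lower and mt-Co1 did not pass. mt-Nd3, called lower in SMC (-1.54 ± 0.37), is a gene whose nuclear copy differs by 1 base.

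Complex IV has several subunits with a second gene for other tissues or states, and several of these genes were called. Cox7a1, the heart and skeletal muscle form of subunit 7a (chr7:30184144-30186078, plus strand), had 88.4, 93.2 and 99.2 FPKM in mES, far above any other library of the series, where the highest value was 24.4 FPKM in RA-16d. It made up 9.76 ± 1.66% of Cox7a1 and Cox7a2 together in RA/CHIR-16d and 12.7 ± 1.93% in RA-16d, against 26.9 ± 2.05% in mES. By limma it was lower than in mES in each case tested, at -2.44 ± 0.29 in RA/CHIR-16d, -2.10 ± 0.29 in RA-16d, -2.94 ± 0.29 in SMC and -2.48 ± 0.29 in XEN. The striated muscle markers summed to 12 to 15 FPKM in mES.

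Cox6b2, known as the testis form of subunit 6b (chr7:4751792-4753094, minus strand), had 44.2, 40.0 and 33 FPKM in RA/CHIR-16d, against 109, 86.8 and 94.7 FPKM in RA-16d. The groups were apart, at -1.29 ± 0.16, adjusted p = 5.3e-08 by limma. At day 4 the order was the reverse, with 167, 195 and 194 FPKM in RA/CHIR-4d, against 102, 88.0 and 95.1 FPKM in RA-4d (0.96 ± 0.16, adjusted p = 1.3e-05 by limma). Within RA/CHIR it was lower at day 16 than at day 10 (-1.69 ± 0.16, adjusted p = 6.1e-10 by limma). In SMC it had 11, 12.9 and 5.93 FPKM, against 171, 149 and 144 FPKM in mES (-3.89 ± 0.16), and RA/CHIR-16d was lower than mES too (-1.96 ± 0.16). As a share of Cox6b1 and Cox6b2 together it was 7.18 ± 0.962% in RA/CHIR-16d, 16.3 ± 0.857% in RA-16d and 1.89 ± 0.69% in SMC, against 25.6 ± 3.48% in mES. Its partner Cox6b1 did not pass in any of these 3 comparisons with mES.

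Cox4i2, a form of subunit 4 known from lung and from cells at low oxygen (chr2:152754173-152765037, plus strand), was present in few groups. It had 0.357, 0.686 and 0 FPKM in RA/CHIR-16d, against 9.13, 2.78 and 3.11 FPKM in RA-16d, and 1 RA library was well above the other 2. The difference was -2.03 ± 0.33, adjusted p = 6.4e-06 by limma. In RA it was higher at day 16 than at day 10, where it had 1.23, 1.43 and 0.275 FPKM (1.5 ± 0.33, adjusted p = 5.5e-04 by limma). In a fit of only the groups compared that rise did not pass, and the interaction, -1.61 ± 0.47, adjusted p = 0.0066, did not pass with a pseudocount of 0.1. SMC had 6.07, 9.89 and 5.98 FPKM and XEN 0, 0 and 0.291 FPKM, against 15.1, 9.22 and 11.5 FPKM in mES, where XEN was lower (-3.54 ± 0.33) and SMC did not pass (-0.64 ± 0.33). RA/CHIR-16d (-3.27 ± 0.33) and RA-16d (-1.24 ± 0.33) were lower than mES, and in RA-16d this did not pass with a pseudocount of 0.1 and was under 2-fold without RA-16d replicate 2 (-0.98). It never exceeded a small share of subunit 4, with 0.939 ± 0.26% of Cox4i1 and Cox4i2 together in mES and 0.835 ± 0.231% in SMC.

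Cox7b2 and Cox6a2 each marked a line. Cox7b2, a second gene for subunit 7b, had 20.6, 29.6 and 20.8 FPKM in XEN, against 1.85, 1.05 and 0.343 FPKM in mES (3.61 ± 0.38, adjusted p = 3.0e-09 by limma). Outside XEN its highest library had 5.73 FPKM, in RA/CHIR-16d. Cox6a2, the heart and skeletal muscle form of subunit 6a, had 9.18, 9.07 and 7.00 FPKM in SMC, against 0, 0 and 0.266 FPKM in mES, and no library of any other group reached 1 FPKM. It entered the test only through SMC and so had to differ there, and its fold change is not given. It was still only 0.93 ± 0.133% of Cox6a1 and Cox6a2 together. Among the other forms of complex IV subunits, Cox7a2l, a factor of supercomplexes, had 217 ± 13 FPKM in RA/CHIR-16d, against 263 ± 27.5 FPKM in RA-16d. In complex V, which has 3 genes for the c subunit of its ring, Atp5g1 made up 20.1 ± 1.32% of the family in RA/CHIR-16d and 19.7 ± 1.19% in RA-16d, against 21.2 ± 1.73% in mES.

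**Figure D5:**
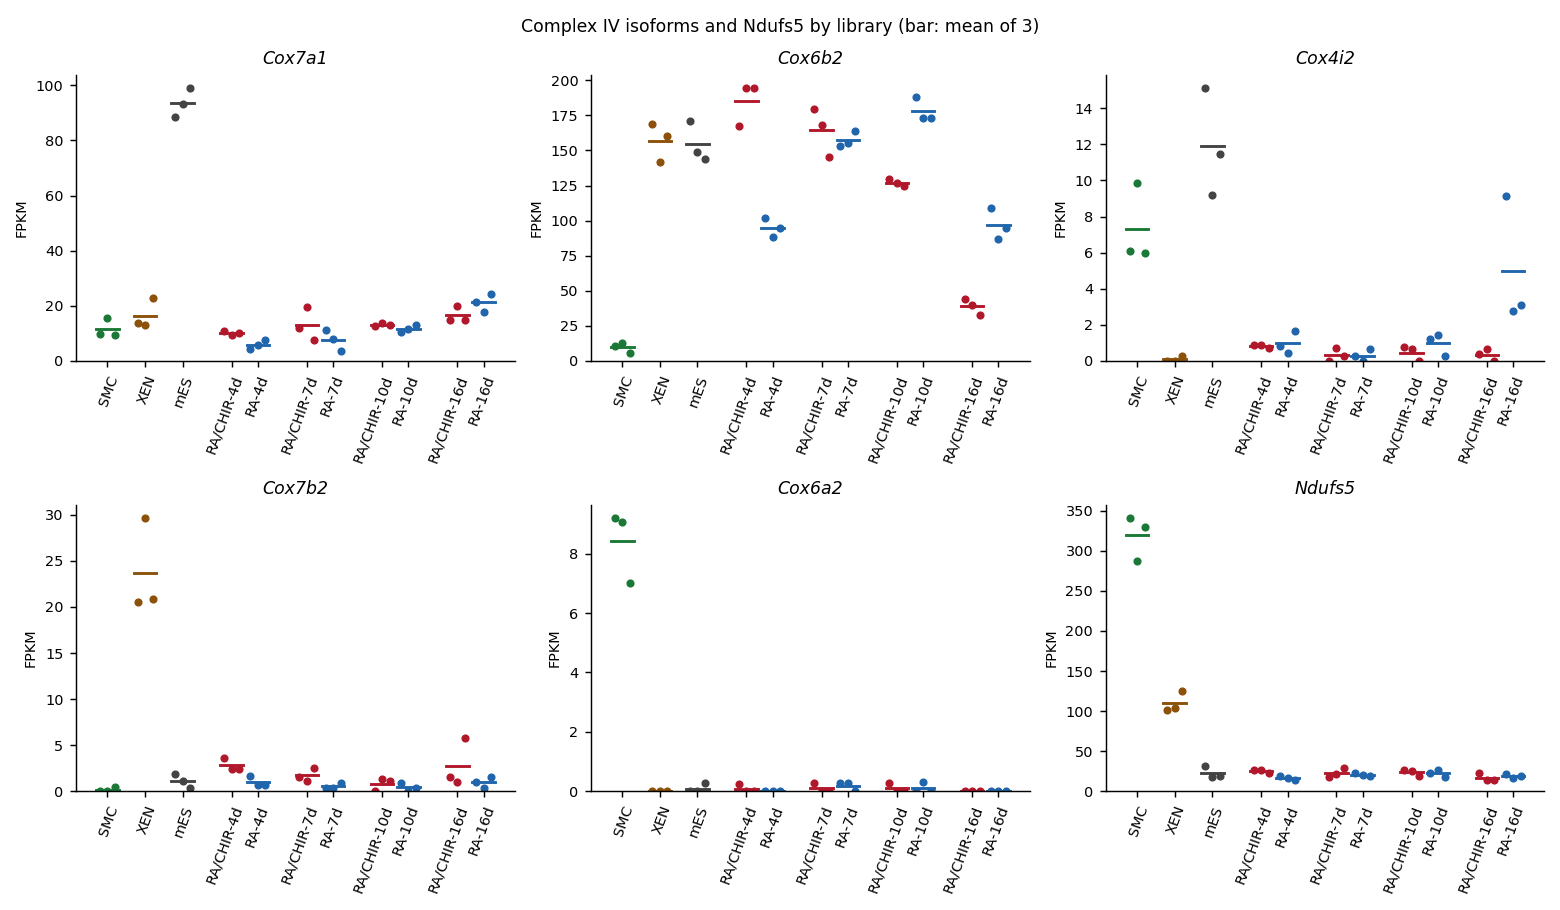
FPKM of 5 isoform genes of complex IV and of Ndufs5 in each of 33 libraries, with the group mean as a bar. Cox7a1 is high in mES alone, Cox7b2 in XEN alone and Cox6a2 in SMC alone, while Ndufs5 is high in SMC and less so in XEN.

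Within mitochondrial DNA, the balance between genes also differed. The ratio of mt-Co1 to mt-Cytb was 5.14 ± 0.174 in RA/CHIR-10d, against 3.09 ± 0.0576 in RA-10d, and 4.33 ± 0.0644 in RA/CHIR-16d, against 2.75 ± 0.171 in RA-16d. At day 4 it was 3.36 ± 0.0271 in RA/CHIR-4d, against 3.49 ± 0.0648 in RA-4d. XEN had the highest ratio, with 6.53 ± 0.339, against 3.00 ± 0.207 in mES. The ratio of mt-Co1 to mt-Nd1 was 4.07 ± 0.231 in XEN and 2.52 ± 0.0186 in SMC, against 1.51 ± 0.0771 in mES. A ratio within a library does not depend on its scaling, and these were given no test. The ratio of mt-Nd6, the protein gene on the opposite strand, to mt-Cytb was 1.78 ± 0.383 in XEN, against 0.855 ± 0.0694 in mES, and without strand-specific counting reads of mt-Nd6 and of its antisense strand cannot be told apart.

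Likeness between genes was measured across the 11 group means. The Pearson correlation of a nuclear gene with the mean of the other nuclear genes had a median of 0.67 and was above 0.8 for 17 of 81 genes, among them Uqcr10 (0.93) and Atp5k (0.91), and it was -0.10 for Atp5sl. For the mitochondrial genes the median was 0.84, and 7 of 13 were above 0.8. The mean of the nuclear genes and the mean of the mitochondrial genes correlated at -0.41 over the 11 group means. These values describe 11 points that share their libraries and their scaling to a common total. Of the 81 nuclear genes, 27 had their highest group mean in mES, 20 in XEN and 13 in SMC, and 35 had their lowest in RA-4d and 21 in RA/CHIR-16d.

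Other genes of the mitochondrion were counted for comparison. At day 4, 40 of 78 genes of the mitochondrial ribosome were higher in RA/CHIR than in RA, as were 22 of 45 assembly factors (1 lower), 10 of 13 genes of the citrate cycle and 7 of 20 genes for mitochondrial gene expression (1 lower), against 21.5% of all genes higher and 21.4% lower. At day 16 the ribosomal genes were 18 higher and 15 lower, and the assembly factors 13 higher and 14 lower, against 30.1% of all genes higher and 31.8% lower. Of the assembly factors, Tmem70, which helps to build complex V, was called lower in RA/CHIR-16d (-1.23 ± 0.10). Of 6 carriers and partners of the chain, 3 were higher at day 4 and 1 was higher and 4 lower at day 16. Of the listed nuclear copies of mitochondrial DNA, 8 of 9 were tested, and 3 were higher at day 4 and 5 lower at day 10, though 1 of them, Gm10221, matches Atp5l rather than mitochondrial DNA. Of all genes, 28.0% were lower at day 10. In RA/CHIR-16d against mES, 51 of the 78 ribosomal genes were lower and 9 higher, and in RA-16d 50 were lower and 8 higher, against 37.7% of all genes lower and 35.8% higher in RA/CHIR-16d and 35.6% lower and 38.8% higher in RA-16d. Idh3a, a citrate cycle subunit, was higher in RA/CHIR-10d than in RA-10d (1.01 ± 0.06, adjusted p = 6.0e-14 by limma), and so was Polg, the polymerase that copies mitochondrial DNA (1.19 ± 0.10, adjusted p = 7.7e-11 by limma). Lrpprc, which stabilises mitochondrial messages, was lower than in mES in RA/CHIR-16d (-1.27 ± 0.07) and RA-16d (-1.55 ± 0.07).

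Of 10 regulators of these genes 7 could be tested, and 2 were higher and 2 lower in RA/CHIR at day 4, against 21.5% of all genes higher and 21.4% lower. Esrrb, a nuclear receptor and pluripotency marker, had 31.5 ± 1.71 FPKM in RA/CHIR-4d, against 0.916 ± 0.115 FPKM in RA-4d (4.08 ± 0.09, adjusted p = 1.5e-22 by limma), and 214 ± 14.1 FPKM in mES. The pluripotency markers, of which it is one, summed to 829 to 842 FPKM in RA/CHIR-4d and 388 to 410 FPKM in RA-4d, with 5 of 6 higher in RA/CHIR, and their part in the day 4 result was not tested. Gabpa, a subunit of GABP, was lower than in mES in RA/CHIR-16d (-1.13 ± 0.07) and RA-16d (-1.35 ± 0.07), while Esrra was higher (1.30 ± 0.13 and 1.07 ± 0.13). Ndufa4l2, a relative of Ndufa4, had 1.54 ± 0.115 FPKM in RA/CHIR-16d, against 21.5 ± 3.68 FPKM in RA-16d (-3.14 ± 0.15, adjusted p = 7.7e-16 by limma). It was listed at 0 in all 3 RA-10d libraries, and it had 233 ± 16.3 FPKM in SMC, against 81.5 ± 12.8 FPKM in mES.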

How the data were processed

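Per the labels' protocols, poly(A) RNA was sequenced as paired reads. The tools named were Trimmomatic 0.33, HISAT2 2.0.4, and Cufflinks with Cuffdiff, and the genome build GRCm38, per the submitters' processing notes. The deposited table holds FPKM as the authors computed it, with no counts, so depth behind a value and its interval are unknown. Cuffdiff's settings and strand handling are not given in the sources used here.

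Values were used as log2(FPKM + 1). The 16508 genes with at least 1 FPKM in at least 3 libraries entered 1 linear model of 11 groups in limma 3.58.1 (R 4.3.3), with a variance trend, 22 residual and 3.05 prior degrees of freedom, and two-sided Benjamini-Hochberg adjusted p-values over all genes in each comparison. Calls needed an adjusted p under 0.05 and a log2 change of at least 1. The script was tested on simulated data. Sums, ratios and motif searches used Python 3.11.15, numpy 2.4.6 and pandas 2.3.3, and figures matplotlib 3.10.9. Copies were compared with Biopython 1.88, and blastn 2.17.0 found transcripts of other genes at 95% identity over 50% of the length for 15 of the 96 genes. Among the nuclear genes, such a copy passed 5 FPKM for Atp5h and Atp5l only, whose values are uncertain.

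All 13 mitochondrial genes, the isoform families, core subunits and the 3 called genes with the largest rise and fall in each comparison, at 5 FPKM or more in the higher group, were to be named. Uqcrq, Ndufa12, Ndufa6, Ndufa11, Ndufv3, Sdhd, Sdhc, Cox7c, Uqcrh and others outside that rule were chosen after their values were seen. The genes, lists and tests were chosen with earlier results of these data known.

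Alternatives were other scalings (TMM-type factors, quantile normalization, sums without mitochondrial rows), a pseudocount of 0.1, no filter or a filter of 5 FPKM, no variance trend, only the groups compared, the replicate number as a block, each library left out, and other sets of mitochondrial genes. Sequences are RefSeq's on GRCm38.p6, and gene positions are those of GENCODE on GRCm38.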

Additional observations from a re-analysis of the deposited data

Results flagged for a closer look

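The change from day 10 to day 16 was compared between RA/CHIR and RA by a test of the interaction in limma. Of the 94 genes tested, 3 nuclear genes passed with at least a 2-fold difference, against 14.8% of all genes. For Cox4i2 the interaction was -1.61 on the log2 scale, and among the RA-16d libraries replicate 1 had 9.13 FPKM while the others had 2.78 and 3.11 FPKM. For Ndufa12 it was -1.08, with 28.2, 28.6 and 25.4 FPKM in RA/CHIR-16d and 53.4, 37.7 and 38.0 FPKM in RA-16d. At day 10 Ndufa12 had 49.8, 44.5 and 44.5 FPKM in RA/CHIR and 28.2, 35.4 and 36.3 FPKM in RA. For Ndufc2 the interaction was -1.07, with 89.1, 96.3 and 104 FPKM in RA/CHIR-16d and 183, 158 and 158 FPKM in RA-16d. Its day 10 values, which enter the interaction as well, are given in the results above. When scaled without mitochondrial rows, Ndufa12 and Ndufc2 were under 2-fold, and Cox4i2 did not pass with the smaller pseudocount.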

How the results depend on the processing

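At an adjusted p alone, the number of genes that passed, of 94, was 68, 39, 48 and 42 in RA/CHIR against RA at days 4, 7, 10 and 16, where the 2-fold rule gave 0, 0, 0 and 2, against 7.63%, 10.7%, 15.4% and 21.3% of all genes. It was 73 in RA/CHIR-16d, 62 in RA-16d, 61 in SMC and 59 in XEN against mES, 51 and 30 for day 16 against day 10 in RA/CHIR and RA, and 51 for the interaction. Of all genes, 21.5% were higher and 21.4% lower at day 4 and 22.9% and 24.4% at day 7. At day 10 these shares were 27.2% and 28.0%, and at day 16 30.1% and 31.8%. Against mES they were 35.8% and 37.7% in RA/CHIR-16d, 38.8% and 35.6% in RA-16d, 35.5% and 40.7% in SMC and 29.5% and 40.9% in XEN. For day 16 against day 10 they were 28.8% and 26.3% in RA/CHIR and 23.6% and 18.0% in RA. For the interaction they were 20.5% and 22.8%. Called genes numbered 6 in RA/CHIR-16d and 4 in RA-16d against mES when scaled without mitochondrial rows, where 1 transcript, AL626808.1, holds 303769.0 FPKM of the sum of mES replicate 3. They were 15 in SMC after quantile normalization. For day 16 against day 10 they were 3 in RA/CHIR and 4 in RA after quantile normalization, 3 in RA when scaled without mitochondrial rows and 0 in RA in a fit of only the groups compared. Leaving out 1 library gave 0 to 2 called genes at day 4, 0 to 1 at day 7, 0 to 0 at day 10 and 2 to 3 at day 16. It gave 9 to 15 in RA/CHIR-16d, 5 to 9 in RA-16d, 8 to 11 in SMC and 9 to 10 in XEN against mES. For day 16 against day 10 it gave 1 to 2 in RA/CHIR and 1 to 1 in RA, and 2 to 4 for the interaction. The cause of these changes was not tested.

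The log2 ratio of mitochondrial to nuclear sums, RA/CHIR minus RA, was -0.13 at day 4, -0.03 at day 7, -0.51 at day 10 and 0.35 at day 16. Without mt-Atp8 and mt-Nd4l it was 0.0202, 0.0916, -0.26 and 0.49. With the 5 genes that lie outside the chromosome 1 stretch, an alternative chosen after seeing the data, it was 0.16 at day 4 and 0.0446 at day 7. With the median over genes it was 0.0157 at day 7. After quantile normalization it was -0.40 at day 4, -0.28 at day 10 and 0.20 at day 16. Against mES it was 0.95 in RA/CHIR-16d, 0.60 in RA-16d, -0.20 in SMC and -0.10 in XEN. After quantile normalization these were 0.62, 0.42, 0.56 and 0.22. With those 5 genes it was 0.68 in RA/CHIR-16d, -0.40 in SMC and -0.75 in XEN. With the median over genes it was -0.42 in SMC and -0.60 in XEN, and without mt-Atp8 and mt-Nd4l -0.28 in XEN. Leaving out 1 library gave -0.16 to -0.09 at day 4, -0.06 to -0.02 at day 7, -0.54 to -0.48 at day 10 and 0.27 to 0.43 at day 16. Against mES it gave 0.87 to 1.06 in RA/CHIR-16d, 0.52 to 0.71 in RA-16d, -0.28 to -0.09 in SMC and -0.18 to 0.00629 in XEN, the last without mES replicate 2. So the direction at days 4 and 7 and in both lines depends on the setting, while days 10 and 16 and both treated groups against mES kept theirs.

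Libraries with the same replicate number deviated together weakly at most across genes, with correlations of -0.08 to 0.11. Over all comparisons, libraries with different numbers gave -0.12 to 0.12. For RA/CHIR against RA at days 4 and 7, however, same numbers gave 0.04 to 0.10 and different numbers -0.10 to 0.01. For RA/CHIR-16d against RA/CHIR-10d, same numbers gave 0.03 to 0.11 and different numbers -0.10 to 0.05, ranges that overlap. A weak pairing by number in these comparisons is therefore possible. With the replicate number as a block, 2 genes were called at day 16, 7 in RA-16d and 11 in RA/CHIR-16d against mES and 3 in the interaction, and of 584 changes at an adjusted p under 0.05, 3 were lost. Of these 584, 70 were lost and 32 changed sign after quantile normalization, and 162 were lost and 9 changed sign when scaled without mitochondrial rows. In a fit of only the groups compared, nuclear genes were 4 higher and 32 lower in RA-16d, 2 higher and 56 lower in RA/CHIR-16d, 14 higher and 21 lower in SMC and 14 higher and 19 lower in XEN, against 7 and 50, 4 and 60, 21 and 33, and 24 and 29 in the fit of all groups. Without counts, the depth of low genes such as Cox4i2 cannot be judged.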
